A study of Homo sapiens with 6 samples.

Results

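The genes described here are 10 markers of epithelial cells, taken by symbol from the deposited table: the keratins KRT7, KRT8, KRT18 and KRT19, the adhesion molecules EPCAM and CDH1, the claudins CLDN4 and CLDN6, the splicing regulator ESRP1 and the transcription factor GRHL2. All 10 were among the 35793 genes listed, and 9 of them reached the mean of at least 10 normalized counts that 15536 genes had for testing; GRHL2 did not. RNA had been sequenced from cardiomyocytes grown for 15 days from WTC11, an established human induced pluripotent stem cell line, either unedited (wild type) or carrying a homozygous CRISPR/Cas9 knockout of STK25, a serine/threonine kinase. Each genotype had 3 biological replicates, and neither received a treatment. The knockout was 1 edited line, so the edit and any other difference between the lines cannot be told apart. The labels do not say whether replicates came from separate differentiations, so p-values measure the spread between these 6 samples.

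Epithelial cells are joined side to side into sheets. E-cadherin (CDH1) holds neighbouring cells together in adherens junctions, claudins seal the tight junctions above them, and keratins form the intermediate filaments inside. A keratin filament is built from pairs of 1 type I chain, such as KRT18 or KRT19, and 1 type II chain, such as KRT7 or KRT8. Pluripotent stem cells are themselves an epithelium, and EPCAM, CDH1, CLDN6 and ESRP1 are known from them. KRT8, KRT18 and KRT19 are also known from the early heart and its mesothelial covering, whereas adult heart muscle relies on desmin filaments.

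The libraries held from 22443904 to 53224112 reads in genes, a 2.37-fold range. STK25 had 8119 ± 1168 normalized counts in the wild type and 3720 ± 251 in the knockout (SD, n = 3 each), or -1.12 as log2 fold change (limma adjusted p = 0.00903), so its transcript was lower but present; the adjusted p was 0.0609 without wild-type replicate 1. Cardiomyocyte markers were high in both genotypes: TNNT2, cardiac troponin T, had 236163 ± 31786 normalized counts in the wild type and 299188 ± 67289 in the knockout. Wild-type replicate 2 and knockout replicate 1 stood apart from the rest of their groups. Their deviations from the group mean fell with transcript length, with Spearman correlations across 15174 genes of -0.42 and -0.28, while those of the other libraries were between 0.053 and 0.36. Of all tested genes, 12.8% had an adjusted p under 0.05 (limma, Benjamini-Hochberg), 5.97% higher and 6.79% lower in the knockout. That rule called 4483 genes without both of these libraries, against 1982 with all 6.

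Among the markers, 2 rose in the knockout (KRT8 and KRT18), 2 fell (KRT19 and CLDN6) and 5 of the 9 tested did not pass. Their median log2 fold change was -0.20, against 0.0052 over all genes tested, and it was 0.028 without wild-type replicate 2 and 0.11 over members with a mean of at least 50. KRT7 and CLDN4 reached the test through their wild-type values alone. In 6 of the 9, KRT7 and CLDN4 among them, the libraries of the genotypes did not overlap, beside 33.4% of all tested genes. That count is a description. Log2 fold changes are limma's on the log2(normalized count + 1) scale unless another tool is named. The 1 added can understate the change of low genes. Differences between genotypes given as a number of fold are ratios of genotype means. In bulk RNA, fewer cells of a type and less RNA per cell cannot be told apart. EPCAM, ESRP1 and CDH1 did not pass the test, and their values are given below with their intervals.

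**Figure D1:**
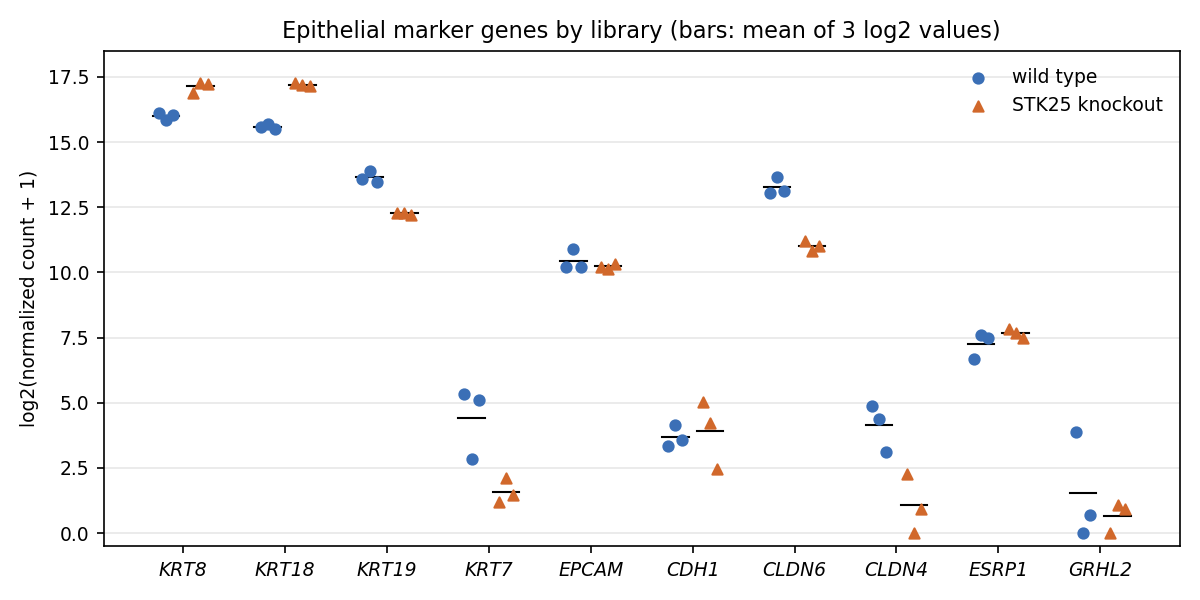
Normalized counts of the 10 markers in each of 6 libraries, as log2(normalized count + 1) on the vertical axis, with wild type as circles, knockout as triangles and the mean of the 3 log2 values as a bar. KRT8 and KRT18 lie higher and KRT19 and CLDN6 lower in every knockout library, while the EPCAM and CDH1 values of the genotypes overlap.

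CLDN6 is a tight-junction claudin of embryonic and pluripotent epithelia, and its fall was the largest among the 4 markers that passed. GENCODE 29 places the gene at positions 3014712 to 3020071 of chromosome 16, minus strand, on GRCh38, the build named in the submitters' processing notes. The 250 bases before its RefSeq start are shown because this gene had the largest change among the markers that passed, and its RefSeq start lies near most of its GENCODE starts. They lie at chr16:3018184-3018433 on the minus strand of GRCh38.p14, and 2 of 3 GENCODE basic transcripts start within 50 bases of the RefSeq start. Capitals mark the cAMP response element TGACGTCA and 2 GC boxes (GGGCGG or its reverse complement CCGCCC).
CLDN6: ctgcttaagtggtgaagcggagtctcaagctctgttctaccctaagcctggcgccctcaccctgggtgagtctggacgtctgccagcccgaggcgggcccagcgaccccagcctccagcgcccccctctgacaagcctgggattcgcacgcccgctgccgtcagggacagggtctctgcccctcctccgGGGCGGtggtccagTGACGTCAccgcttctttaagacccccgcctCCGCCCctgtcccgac
Searched on both strands, TGACGTCA lay 47 to 40 bases before the start, and 1.65% of 35116 RefSeq promoter windows of the same length held it. The GC boxes lay at 61 to 56 and at 16 to 11 bases before the start, and 42.6% of windows held at least 1. The E-box CAGGTG, which SNAI and ZEB repressors bind, the grainyhead site AACCGGTT and the AP-1 site TGACTCA were not in this window, and they were in 17.5%, 0.117% and 4.20% of windows. The motifs did not overlap one another here. A match describes the letters and shows no binding.

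CLDN6 had 8342, 12778 and 8978 normalized counts in wild-type replicates 1, 2 and 3 and 2327, 1828 and 2083 in the knockout replicates. The lowest wild-type library was thus well above the highest knockout library, and wild-type replicate 2 was the highest of all. The means were 10033 ± 2399 and 2079 ± 250 (SD, n = 3 each), 4.82-fold lower in the knockout, with a log2 fold change of -2.25 and an SE of 0.22 (limma adjusted p = 0.00102). It passed the threshold in all 18 alternative fits, with values from -2.53 to -2.06. Per kb of transcript, CLDN6 ranked at the 95.7th to 96.3rd percentile of 15174 genes in the wild type and at the 81.8th to 84.5th in the knockout. So it was among the abundant transcripts of the wild-type cells and moderately abundant in the knockout.

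CLDN6 has close neighbours, which were looked up after its value was seen. CLDN9, a claudin that ends at position 3014505 of chromosome 16, beyond the 3′ end of CLDN6, had 113 ± 49.7 normalized counts in the wild type and 9.62 ± 0.64 in the knockout (log2 fold change -3.31, SE 0.53, limma adjusted p = 0.00715). TNFRSF12A, a cytokine receptor on the opposite strand, overlaps the annotated span of CLDN6, but whether their exons overlap was not checked. Reads of any shared exon sequence may not have been separated, since use of strand is not stated. The annotated start of TNFRSF12A is position 3018445, so the window of bases shown for CLDN6 also lies just before TNFRSF12A. TNFRSF12A had 11769 ± 2368 and 7227 ± 2923 normalized counts, with a log2 fold change of -0.76 (limma adjusted p = 0.157). The 2 neighbouring claudins were therefore both lower, while TNFRSF12A did not pass.

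CLDN4 is a claudin of mature epithelia such as gut and bladder. It had 28.7, 19.8 and 7.65 normalized counts in the wild type and 3.81, 0 and 0.889 in the knockout. In reads this was 57 over the wild-type libraries and 4 over the knockout libraries. Scaled by the library factors of the deposited normalized counts, the ratio of wild type to knockout was 11.3. Its exact 95% interval of 4.18 to 42.9 covers counting error only. The fitted value was -3.07 (log2, SE 0.96) and did not pass (limma adjusted p = 0.0790), although DESeq2 on the recovered reads put it past the threshold (adjusted p = 0.0384). The gene was scarce in every library, at or below the 7.46th percentile per kb.

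KRT8, KRT18 and KRT19 were the most abundant of the markers per kb in the wild type and did not move in the same direction. KRT8 is the main type II keratin of simple epithelia and KRT18 its usual type I partner. Their genes adjoin on chromosome 12, KRT8 from 52897187 to 52949954 on the minus strand and KRT18 from 52948871 to 52952901 on the plus strand. The annotated gene spans overlap, but whether their exons do was not checked. Reads of any shared exon sequence may not have been separated, since use of strand is not stated.

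KRT8 had 70569, 59281 and 66666 normalized counts in the wild type and 120287, 159394 and 154930 in the knockout. Every knockout library was above every wild-type library, and the lowest of each genotype were wild-type replicate 2 and knockout replicate 1. The means were 65505 ± 5733 and 144870 ± 21406 (SD, n = 3 each), 2.21-fold higher in the knockout, with a log2 fold change of 1.14 and an SE of 0.24 (limma adjusted p = 0.0218). The call was less firm than those of the other 3 markers and held in 9 of 18 alternative fits. It was lost with no filter on low genes (adjusted p = 0.0725), with equal totals (0.86, adjusted p = 0.0692), with quantile normalization (0.72, adjusted p = 0.219), with the replicate number as a block (adjusted p = 0.176), and when any single library except knockout replicate 1 was left out (adjusted p from 0.0606 to 0.106). Without both libraries that stood apart the value was 1.20 (limma adjusted p = 0.000384). That setting was chosen after seeing the data, so its p-value does not make the call firmer.

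KRT18 had 48703, 52558 and 45903 normalized counts in the wild type and 155318, 147875 and 146918 in the knockout. The spread within each genotype was small beside the difference. The means were 49054 ± 3341 and 150037 ± 4598 (SD, n = 3 each), 3.06-fold higher in the knockout, with a log2 fold change of 1.61 and an SE of 0.22 (limma adjusted p = 0.00348). With equal totals the log2 value was 1.33 and with quantile normalization 1.18, both past the threshold. KRT8 and KRT18 thus rose together, and per kb both lay above the 98.9th percentile in every library.

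KRT19, the smallest type I keratin, was the exception among the abundant keratins. Its gene lies on chromosome 17 from 41523617 to 41528308, away from the KRT8 and KRT18 pair. It had 12300, 15150 and 11276 normalized counts in the wild type and 5003, 4965 and 4761 in the knockout. The knockout libraries were nearly equal to one another and all below the wild type. The means were 12908 ± 2007 and 4910 ± 130 (SD, n = 3 each), 2.63-fold lower in the knockout, with a log2 fold change of -1.38 and an SE of 0.19 (limma adjusted p = 0.00341). The fall passed in all 18 alternative fits, from -1.67 to -1.26.

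KRT7, a type II keratin of ducts and mesothelium, was scarce. It had 39.3, 6.09 and 33.8 normalized counts in the wild type and 1.27, 3.34 and 1.78 in the knockout. Wild-type replicate 2 lay close to the knockout libraries. Over all libraries of a genotype this was 87 reads against 6. Scaled by the library factors, the ratio was 11.5, with an exact 95% interval of 5.07 to 32.2 for counting error only. The fitted value was -2.83 (log2, SE 0.91) and did not pass (limma adjusted p = 0.0848). edgeR on the recovered reads gave an adjusted p of 0.0499 and DESeq2 0.0119, and limma passed it without wild-type replicate 2 (-3.63, adjusted p = 0.0380). The genes that overlap KRT7 and were matched in the table, KRT86 and KRT87P, had 5 and 0 reads over all libraries.

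**Figure D2:**
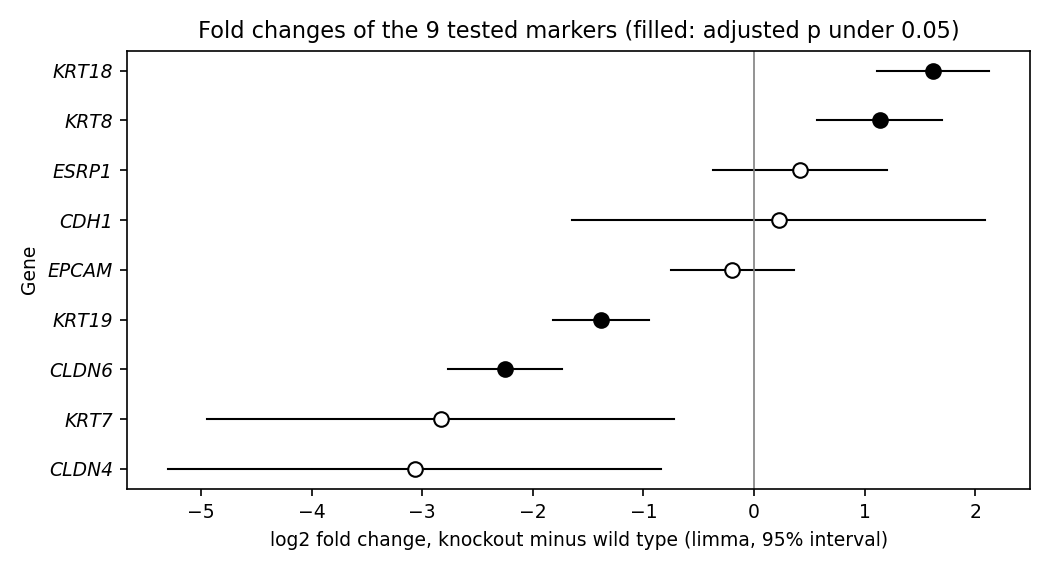
The log2 fold change of each tested marker, knockout minus wild type, with limma's 95% interval as a line and filled points for an adjusted p under 0.05. KRT8 (1.14) and KRT18 (1.61) lie to the right of 0, KRT19 (-1.38) and CLDN6 (-2.25) to the left, and the intervals of EPCAM, ESRP1 and CDH1 include 0.

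Because filaments need both keratin types, the balance of the 4 marker keratins was compared per kb of transcript, which allows levels of different genes to be added. KRT10, another type I keratin, was not in these sums. It had 1539 ± 902 normalized counts per kb in the wild type and 2697 ± 1832 in the knockout (SD, n = 3 each). The 4 keratins together came to 75522 ± 2349 normalized counts per kb in the wild type and 176566 ± 8473 in the knockout (SD, n = 3 each), 2.34-fold more. They took 0.359% ± 0.032 of all reads in the wild type and 0.700% ± 0.123 in the knockout. Among these 4, the ratio of type II to type I was 0.938, 0.707 and 0.945 in the wild-type libraries and 0.620, 0.862 and 0.844 in the knockout libraries. These ratios overlapped (exact two-sided permutation test, p = 0.5 before and after adjustment), and the lowest of each genotype were the libraries that stood apart. The ratio of the partners KRT8 and KRT18 was 1.20, 0.936 and 1.21 in the wild type and 0.643, 0.895 and 0.875 in the knockout. It did not overlap and was 1.39-fold lower in the knockout (exact two-sided permutation test, p = 0.1, 0.11 adjusted).

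The make-up of the type I keratins among the markers differed between the genotypes. KRT19 made up 22.1%, 24.5% and 21.6% of KRT18 and KRT19 together, per kb, in wild-type replicates 1, 2 and 3, and 3.49%, 3.64% and 3.51% in the knockout replicates. The groups did not overlap, and the share was 6.41-fold lower in the knockout (22.7% ± 1.52 against 3.55% ± 0.077, SD, n = 3 each). An exact two-sided permutation test gave p = 0.1, the smallest that 3 against 3 allows (0.11 adjusted over the 11 keratin measures compared). KRT8 and KRT18 have many processed pseudogenes, whose near-identical sequences could take reads from them or give reads to them. Here 51 pseudogene rows of KRT8 came to between 0.252% and 0.446% of KRT8 in each library, and 67 of KRT18 to between 0.0784% and 0.207% of KRT18.

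**Figure D3:**
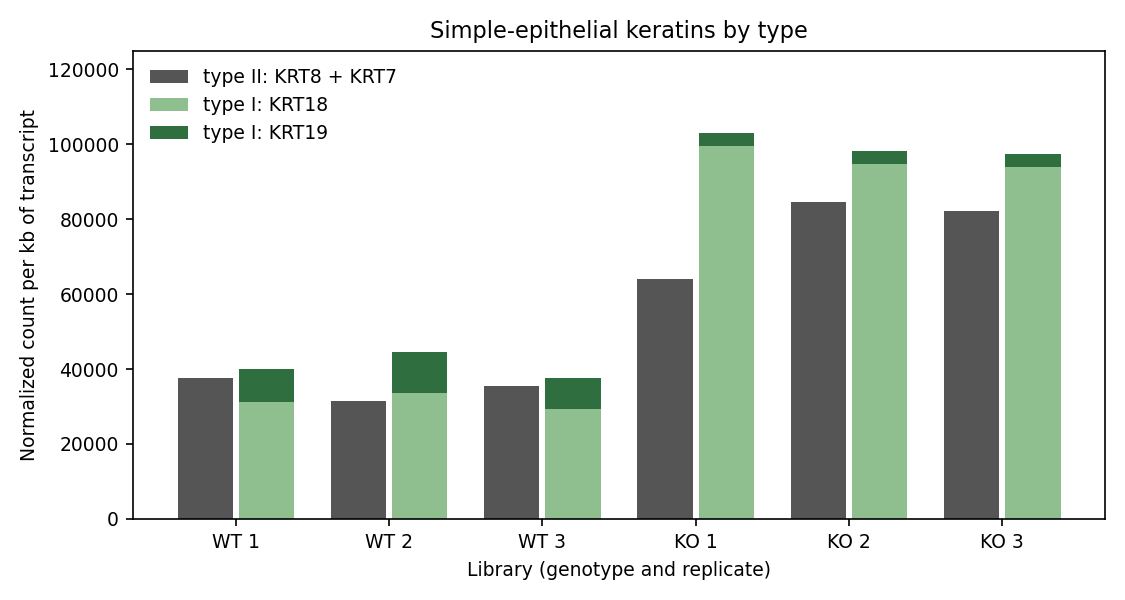
Normalized counts per kb of transcript (vertical axis, from 0) of type II keratins (KRT8 and KRT7, grey) and type I keratins (KRT18 light green, KRT19 dark green) in each library. Both sums are taller in the 3 knockout libraries. The KRT19 part is 21.6% to 24.5% of KRT18 and KRT19 together in the wild type and 3.49% to 3.64% in the knockout. KRT10, another type I keratin, is not included.

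EPCAM, an adhesion and signalling molecule of epithelial and pluripotent cells, did not pass. Its gene lies on chromosome 2 from 47345158 to 47387601. It had 1175, 1882 and 1183 normalized counts in the wild type and 1187, 1131 and 1294 in the knockout. Wild-type replicate 2 was the highest, and the other 5 libraries lay close together. The log2 fold change was -0.20 with a 95% interval of -0.75 to 0.36 (limma adjusted p = 0.660), and 0.028 without wild-type replicate 2. Per kb, EPCAM lay between the 72.0th and 80.6th percentile of genes. The 3 genes whose log2 values were most like those of EPCAM, of 13035 with a mean of at least 50, were SRP9 (Pearson r = 0.98 over 6 libraries), CCDC169 (0.97) and MAP11 (0.97). All 3 were also highest in wild-type replicate 2, which follows from how they were picked, since EPCAM peaked there.

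CDH1, which encodes E-cadherin, was scarce in both genotypes. It had 9.06, 16.8 and 10.8 normalized counts in the wild type and 31.8, 17.8 and 4.44 in the knockout, with at most 25 reads in a library. The knockout values spanned the wild-type ones. The log2 fold change was 0.22 with a 95% interval of -1.64 to 2.09 (limma adjusted p = 0.899), an interval of several fold in either direction that reflects the spread between libraries. Over all libraries it had 45 reads in the wild type and 46 in the knockout. Scaled by the library factors, the ratio of wild type to knockout was 0.776. Its exact 95% interval was 0.503 to 1.20 for counting error only. EPCAM transcripts were thus present at a middling level with very few of CDH1, 869 ± 249 against 3.70 ± 1.22 normalized counts per kb in the wild type and 740 ± 50.8 against 5.45 ± 4.14 in the knockout (SD, n = 3 each). CDH2, the N-cadherin of heart muscle, had 12940 ± 4868 and 16153 ± 5395 normalized counts and did not pass (limma adjusted p = 0.606).

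ESRP1 promotes epithelial splice forms. It had 101, 193 and 176 normalized counts in the wild type and 228, 203 and 180 in the knockout. The ranges overlapped, with wild-type replicate 1 the lowest. The log2 fold change was 0.42 with a 95% interval of -0.37 to 1.21 (limma adjusted p = 0.483). Its paralog ESRP2 had 238 ± 57.8 and 121 ± 42.2 normalized counts, with no overlap between genotypes, and a log2 fold change of -1.01 (limma adjusted p = 0.133).

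GRHL2, a grainyhead factor that activates CDH1 and claudin genes in epithelia, was at the limit of detection. It had 9, 0 and 1 reads in the wild type and 0, 1 and 1 in the knockout. All but wild-type replicate 1 were under 3 reads, which correspond to between 1.91 and 4.53 normalized counts depending on the library, and a floor of 3 reads covers counting error only. No test was made.

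Wild-type replicate 1 was also the highest library for 8 of 12 other keratins. These included the stratified-epithelium keratins KRT5, KRT6A, KRT13, KRT14 and KRT17, with 33.2, 19.6, 28.7, 86.1 and 52.9 normalized counts there. In wild-type replicate 2 they had 1.52, 0, 0, 0 and 0. None of the 5 tested keratins of that list passed with limma; KRT20 had no read, and KRT10 was the only one with a mean over 50, at 3268 ± 1916 and 5729 ± 3891 normalized counts. KRT7, CLDN4 and GRHL2 likewise had their highest values in wild-type replicate 1. Whether a common source lay behind these values was not tested.

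Of the 52 tested genes in 5 lists of related epithelial and mesenchymal genes, 10 had an adjusted p under 0.05, 5 higher and 5 lower, with a median log2 fold change of -0.35 that was -0.09 without wild-type replicate 1 and -0.05 over genes with a mean of at least 50. That is a share called of 19.2% beside the 12.8% of all genes. The number was 4 when wild-type replicate 1 was left out, 5 when either the third wild-type or the third knockout library was, and 18 without both libraries that stood apart. In 3 of the 5 lists called genes lay in both directions, though in the transcription factor list the only fall was GRHL3. These counts include GRHL3 and PKP3, which reached the test through their wild-type values alone. The counts, the share and the directions are therefore a description, and those falls do not support them. TJP3, KRT15, KRT17 and KRT80 reached the test the same way and did not pass.

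Among 7 tested transcription factors and splicing regulators of epithelia, 1 rose and 1 fell, with a median of -0.68 that was -0.44 without knockout replicate 1, -0.41 with edgeR and -0.40 with DESeq2. KLF5, a Krüppel-like factor of epithelia and pluripotent cells, had 41.4 ± 18.0 normalized counts in the wild type and 206 ± 13.8 in the knockout (log2 fold change 2.37, SE 0.40, limma adjusted p = 0.00938). GRHL3, a relative of GRHL2, which the wild type alone brought into the test, had 67 reads against 5. Scaled by the library factors, the ratio was 10.6 (exact 95% interval 4.33 to 33.8, counting error only). Its limma adjusted p of 0.0479 was between 0.0527 and 0.187 when any single library was left out. OVOL1, OVOL2, EHF, TFAP2C and TP63 were too low to test.

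The 20 adhesion and junction genes had 1 rise and 3 falls, with a median of -0.44 that was -0.21 without wild-type replicate 3, -0.14 over genes with a mean of at least 50 and -0.72 with equal totals. CDH3, P-cadherin, went from 6892 ± 1928 to 1580 ± 571 normalized counts (log2 fold change -2.16, SE 0.35, limma adjusted p = 0.00768). F11R, the junctional adhesion molecule JAM-A, went from 2119 ± 404 to 478 ± 93.0 (-2.15, SE 0.24, limma adjusted p = 0.00176). The desmosomal plakophilin PKP3 had 131 reads in the wild type and 1 in the knockout, a ratio of 104 with a counting interval of 18.3 to 4134 (limma adjusted p = 0.00918, and 0.0633 and 0.0556 without wild-type replicates 1 and 3). OCLN, the tight-junction protein occludin, rose from 76.3 ± 33.8 to 615 ± 394 normalized counts (2.77, SE 0.67, limma adjusted p = 0.0344). Its knockout values were 168, 909 and 768, lowest in knockout replicate 1, and the rise passed in 11 of 18 alternative fits. DSP, JUP, CTNNB1 and CTNND1, which heart muscle also uses in its intercalated discs, did not pass, with log2 fold changes of -0.34, -0.07, -0.14 and -0.03. The catenin CTNNA1 had the opposite sign, with a log2 fold change of 0.71, and did not pass either (limma adjusted p = 0.271). DSP, JUP, CTNNB1, CTNND1 and CTNNA1 all had their lowest value of each genotype in the libraries that stood apart.

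Of the 11 tested surface and trafficking genes, 2 rose and 1 fell, with a median of -0.24 that was 0.013 without knockout replicate 2, 0.13 without both libraries that stood apart and 0.24 over genes with a mean of at least 50. CD24, a surface glycoprotein of epithelial and progenitor cells, went from 2951 ± 343 to 5552 ± 895 normalized counts (log2 fold change 0.91, SE 0.20, limma adjusted p = 0.0253). AP1M2, an adaptor for sorting to the basolateral membrane, went from 17.3 ± 8.36 to 119 ± 66.0 (2.67, SE 0.56, limma adjusted p = 0.0204). The receptor ERBB3 went from 259 ± 92.7 to 47.1 ± 14.1 (-2.40, SE 0.42, limma adjusted p = 0.0104). With equal totals CD24 was at 0.62 (limma adjusted p = 0.185). Without any 1 library except knockout replicate 1 its adjusted p was 0.0610 to 0.106. ERBB3 and AP1M2 did not pass without wild-type replicates 1 or 3, with limma adjusted p of 0.0629 and 0.0543 for ERBB3 and 0.0828 and 0.0726 for AP1M2. AP1M2 also did not pass without knockout replicate 3, at 0.0651.

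Repressors of CDH1 were compared because SNAI, ZEB and TWIST factors silence epithelial genes. Of the 9 tested genes in the list, 1 rose, and the median was 0.088, which was -0.19 with equal totals, and -0.13 and -0.05 when the second wild-type or the second knockout library was left out. SNAI2 had 153, 99.0 and 93.8 normalized counts in the wild type and 350, 353 and 497 in the knockout (1.80 on the log2 scale, SE 0.32, limma adjusted p = 0.0105, but 0.0530 without knockout replicate 3). ZEB1 and ZEB2 had log2 fold changes of 0.11 (95% interval -0.48 to 0.70) and 0.09 (-0.60 to 0.78). SNAI1 had 32.7 ± 19.3 and 11.4 ± 9.01 normalized counts (limma adjusted p = 0.231), TWIST1 45.2 ± 2.85 and 18.0 ± 14.8 (limma adjusted p = 0.178), and TWIST2 had 2 reads in all. VIM, the mesenchymal filament protein vimentin, had 21447 ± 5016 and 19994 ± 3815 normalized counts and did not pass (limma adjusted p = 0.863).

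**Figure D4:**
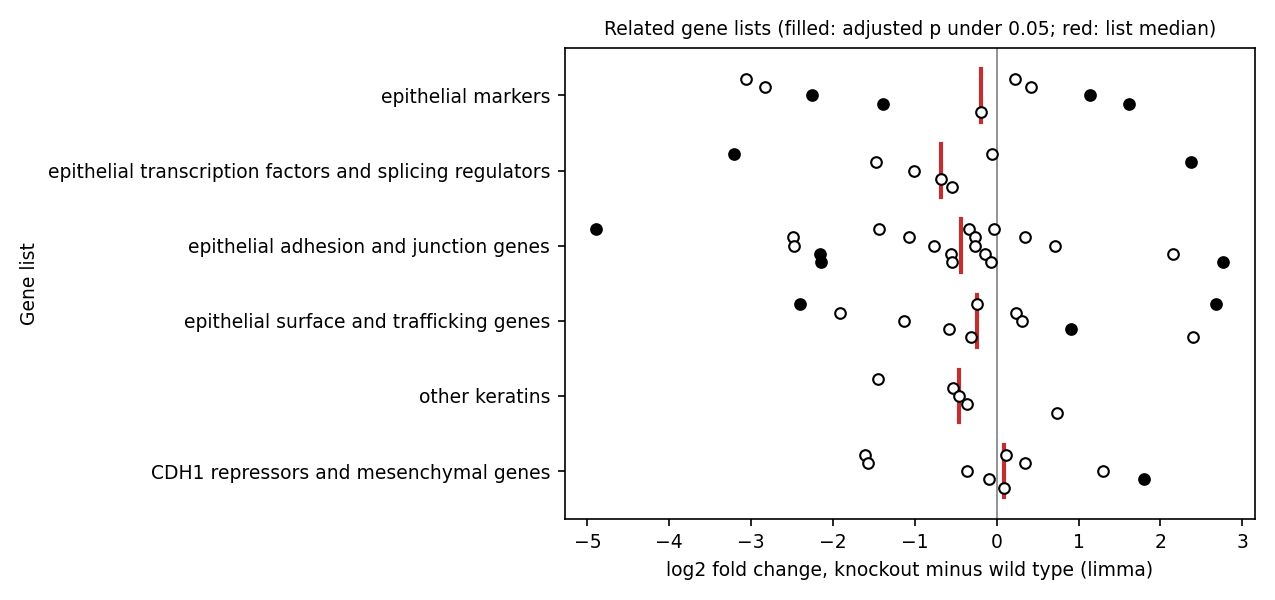
Each point is 1 tested gene of the marker list or of a related list, placed by its log2 fold change (knockout minus wild type, horizontal axis), filled where the limma adjusted p was under 0.05, with the list median in red. Called genes lie on both sides of 0 in the first 4 lists, and list medians run from -0.68 to 0.088. In the transcription factor list the called point below 0 is GRHL3, which reached the test through the wild type alone.

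Several other cell types that such cultures can hold also make these markers, so their defining genes were read in the same libraries. Their counts stand beside the 12.8% of all tested genes that were called, 5.97% higher and 6.79% lower. AFP reached the test through the wild type alone, and ALDH1A2, SOX2 and PAX6 through the knockout alone, so counts that include them are a description. TTR through the wild type alone, and POU5F1, CGA and ELAVL4 through the knockout alone, also reached it and did not pass. The epicardial and mesothelial list, whose cells make KRT7, KRT8, KRT18 and KRT19, summed to between 2805 and 5034 normalized counts in the wild type and between 3041 and 6001 in the knockout. LRRN4, a mesothelial membrane protein that did not pass (limma adjusted p = 0.619), was 49.0% to 92.0% of that sum, and without it the list summed to between 385 and 439 in the wild type and between 1549 and 1701 in the knockout. Of the 9 tested genes 3 rose: the transcription factor TCF21 (22.2 ± 30.3 to 467 ± 67.9 normalized counts, limma adjusted p = 0.00952), the retinoic acid enzyme ALDH1A2 (6.37 ± 5.84 to 189 ± 87.3, adjusted p = 0.0141, and 0.0660 without knockout replicate 3) and the calcium-binding CALB2 (65.4 ± 20.9 to 401 ± 20.1, adjusted p = 0.00236). MSLN, the mesothelial surface protein, had at most 1 read in any library. Their part in the keratin values was not tested.

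The endoderm and liver list, whose cells make EPCAM, CDH1 and keratins, summed to between 1676 and 3014 normalized counts in the wild type and between 1210 and 1257 in the knockout. The apolipoprotein APOA1, which did not pass (2026 ± 743 against 1195 ± 31.4 normalized counts, limma adjusted p = 0.136), made up 88.4% to 97.6% of that sum, and the rest came to between 141 and 194 in the wild type and between 30.2 and 61.0 in the knockout. Of the 3 tested genes in the list 1 fell, the fetal serum protein AFP, from 104 ± 52.4 to 2.03 ± 1.83 normalized counts (limma adjusted p = 0.00661). FOXA2 and CDX2, which define endoderm and gut, had no read in any library. The pluripotency list summed to between 1606 and 2464 in the wild type and between 3693 and 5175 in the knockout. Of its 9 tested genes only TDGF1, a Nodal co-receptor also made in the early heart, passed (560 ± 71.6 to 3516 ± 782, limma adjusted p = 0.000656), while NANOG had at most 12 reads. TDGF1 carried the difference in the sum. The other 9 genes summed to between 1119 and 1901 in the wild type and between 1080 and 1210 in the knockout. SOX2, which pluripotent cells also make, was counted in the neural list, so its rise is not in this sum or count. The part of endoderm or pluripotent cells in the values of CLDN6, EPCAM and KRT19 was not tested.

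The surface ectoderm and trophoblast list summed to no more than 205 normalized counts in any library and none of its 3 tested genes passed. In the neural list 3 of 6 tested genes rose. NES, MAP2 and ELAVL4 did not pass (limma adjusted p = 0.340, 0.954 and 0.525). SOX1, DCX, STMN2 and ELAVL3 were too low to test, with at most 1, 5, 8 and 24 reads in a library. Whether neural cells were present was not tested. SOX2 had 8 reads against 375, PAX6 went from 4.22 ± 2.57 to 53.4 ± 37.4 normalized counts (limma adjusted p = 0.0364, and 0.0507 to 0.127 without any 1 library), and TUBB3 from 62.3 ± 40.1 to 449 ± 137. In the cardiomyocyte list 1 of 10 genes passed, the calcium-pump inhibitor PLN, from 55599 ± 5281 to 32697 ± 1500 normalized counts (log2 fold change -0.76, limma adjusted p = 0.0459). PLN did not pass when any single library except knockout replicate 1 was left out, with limma adjusted p up to 0.176. The summed cardiomyocyte markers had 1291716 to 1608238 normalized counts in wild-type libraries and 1844317 to 3357776 in knockout libraries. Most of that difference was MYL7, the atrial myosin light chain, which did not pass (541523 ± 171844 against 1481018 ± 756946, limma adjusted p = 0.114). The list median was 0.49, and -0.08 with quantile normalization.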

How the data were processed

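The authors deposited 1 table with a signal per gene and library, called normalized counts. Multiplied by a single factor for its library, 100% of values came out as whole reads (tolerance 0.001 reads). Per the submitters' processing notes, bcl2fastq 2.19, kallisto 0.44.0 and DESeq2 1.28.1 were used with GRCh38; their roles and the annotation are not given in the sources used here. kallisto estimates counts, so the recovered reads may be rounded estimates. Per the labels' protocols, cDNA synthesis used a Clontech Ultra Low kit, then NexteraXT; use of strand is not stated. No molecular identifiers are mentioned, so counting intervals (95%, exact) may be too narrow. Unused columns numbered 0.

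Here limma 3.58.1 (R 4.3.3; lmFit, eBayes with a trend) was fitted to log2(value + 1) of 15536 genes with a mean of at least 10, over 6 libraries without covariates, with Benjamini-Hochberg adjustment and a threshold of 0.05. edgeR 4.0.16 and DESeq2 1.42.0 on recovered reads were alternatives, with other pseudocounts, filters, scalings, a robust trend, a replicate block and each library left out; leaving out 2 libraries together was chosen after seeing the data. The fits were also run on simulated counts in which no library stood apart, so that run does not cover the spread between the real libraries. Replicates differed by more than sampling noise (chi-square over its degrees of freedom, 19.9 to 382). Levels per kb used median GENCODE 29 transcript lengths, matched for 97.7% of tested genes. Of the 10 markers 3 matched a RefSeq promoter.

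Members and lists were chosen with earlier results of these data known. By rule the text names the markers, STK25, genes of the lists that passed the threshold, the SNAI, ZEB and TWIST repressors and the 3 genes most like EPCAM; other genes, and the motifs, were named after their values or letters were seen.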

Additional observations from a re-analysis of the deposited data

How the results depend on the processing

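The main limma fit called 4 markers, and the alternatives called between 2 and 6; limma on all 6 libraries called 3 with no filter, with equal totals and with quantile normalization. CLDN6 and KRT19 passed in all 18 alternatives, KRT18 in 17 and KRT8 in 9. The 1982 genes called became 3210 with DESeq2 and 4483 without wild-type replicate 2 and knockout replicate 1 together; that last setting gave 6 markers and 18 related genes, against 10 with all libraries. DESeq2 also called 6 markers. Leaving out 1 library gave between 796 and 2181 genes, between 3 and 5 markers and between 4 and 11 related genes; the lowest numbers came without wild-type replicates 1 (796) and 3 (916) and knockout replicates 2 (1292) and 3 (962). Equal totals shifted the median of all genes to -0.27 and gave 549 higher and 1457 lower genes, against 927 and 1055. With the replicate number as a block, 798 genes, 2 markers (KRT19 and CLDN6) and 6 related genes passed; KRT18 then had an adjusted p of 0.0660. Deviations of same-numbered libraries correlated at -0.23, -0.40 and 0.17, and wild-type replicate 2 was most like knockout replicate 1 (0.45). Those 2 libraries shared a fall with transcript length. The correlations therefore cannot show whether same-numbered replicates were made together. For GRHL2 the number of reads limits what can be seen; for KRT7, CLDN4 and CDH1 the spread between libraries was wider than the counting error.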
